A study of Mus musculus with 12 samples.

Results

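Broad H3K4me3 regions without H3K27me3 were taken from peak lists of chromatin immunoprecipitation with sequencing (ChIP-seq) in primary mouse embryonic fibroblasts (MEFs), connective-tissue cells grown from embryos, of a hybrid 129/B6 background. Overlapping peaks of the 4 H3K4me3 lists were joined into union regions. A union region was kept when it was 5000 bp or longer, had a peak in each of the 4 H3K4me3 lists and overlapped no peak of the 4 H3K27me3 lists. Of 16628 union regions 540 (3.25%) reached 5000 bp, all 540 of these were present in the 4 H3K4me3 lists, and 489 (2.94% of all regions, 90.6% of the broad ones) had no H3K27me3. The other 51 broad regions overlapped an H3K27me3 peak in 1 list (6 regions), 2 lists (11), 3 lists (9) or all 4 lists (25).

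Each mark was measured in 4 conditions with 1 library each: wild type cells (lincRNA-p21+/+, here WT) and lincRNA-p21 knockout cells (lincRNA-p21-/-, here KO), either mock treated or exposed for 24 h to doxorubicin, which damages DNA, at the labelled dose of 0.5 mM. Values of the 4 lists are given in the order WT mock, WT doxorubicin, KO mock, KO doxorubicin wherever 4 values follow each other. The series title frames its question around lincRNA-p21, a long noncoding RNA induced by p53, in the expression of Polycomb targets and in the G1/S checkpoint. With 1 library per condition no replicate spread could be measured, no p-value was computed, and differences in depth or enrichment between libraries cannot be told apart from those between conditions. The regions were chosen by their presence in the lists and their union length, both read from the same peaks as the covered lengths below, so that all of these values are descriptions. The MEF identity was not checked against marker genes, because no gene annotation of the files' genome build was used here, and for the same reason regions are given by position and not by gene.

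Trimethylation of lysine 4 on histone H3 is laid down by the SET1 and MLL family of methyltransferases around transcription start sites of active or poised genes, usually over the first few nucleosomes on either side. A small share of promoters carries the mark over much longer stretches that run into the gene body, and in many cell types such broad domains are known for lying at genes of cell identity and at highly transcribed genes. Trimethylation of lysine 27 is made by Polycomb repressive complex 2, and promoters with both marks are called bivalent. The regions described here are broad without that second mark.

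The 489 regions spanned 3055 kb in all. Their union length had a median of 5860 bp and quartiles of 5366 and 6625 bp, and ran from 5000 to 14165 bp. Most were close to the lower limit, with 268 regions under 6 kb, 181 from 6 to 8 kb, 27 from 8 to 10 kb and 13 of 10 kb or more. They lay on all 19 autosomes and on chromosome X, from 44 on chromosome 11 and 35 each on chromosomes 3 and 7 to 14 on chromosome 18 and 10 on chromosome X. As a share of the regions that each chromosome had in the 4 lists, this was highest on chromosome 3 (5.56%) and lowest on chromosome X (2.46%). The regions held 3.58% of the H3K4me3 peaks and 8.41% of the peak bases in WT mock cells. For WT doxorubicin the same shares were 4.01% and 8.66%, for KO mock 4.75% and 8.72%, and for KO doxorubicin 4.25% and 8.56%. Almost the same part of the marked genome thus fell in these regions in each list, while it was cut into more peaks in the 3 lists other than WT mock.

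The regions just inside the limit were chr5:4754343-4759342 (5000 bp), chr14:35122617-35127618 (5002 bp) and chr3:57376187-57381190 (5004 bp). Just outside it were chr12:11271132-11276122 (4991 bp), chr19:23214105-23219091 (4987 bp) and chr7:16631102-16636082 (4981 bp). Each list held 1 peak in each of these regions, except that KO mock had 2 in the region on chromosome 14. Peaks covered 4831, 5000, 3772 and 3258 bp of the region on chromosome 5 in the 4 lists. On chromosome 12, just outside, they covered 4785, 3435, 4610 and 4630 bp. The limit therefore separated regions of similar size. On chromosome 3 the 4 values were 4732, 4817, 4170 and 4822 bp, so that the union passed the limit and no list did.

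The covered length, the sum of the peak lengths of a list within a region, was longer in the WT lists than in the KO lists. WT mock had a median of 5421 bp (quartiles 4976 and 6208) and WT doxorubicin one of 5377 bp (4881 and 6220). KO mock had 4719 bp (4011 and 5458) and KO doxorubicin 4959 bp (4343 and 5680). In total the regions were covered over 2808, 2778, 2361 and 2502 kb, or 91.9%, 90.9%, 77.3% and 81.9% of their union length. Over all 13107 regions with a peak in each list, these shares were 92.8%, 86.6%, 78.5% and 82.7%. The number of regions covered over at least 95% of their length was 236, 213, 27 and 80. These were 48.3%, 43.6%, 5.52% and 16.4%, against 51.8%, 20.4%, 7.64% and 15.3% of all regions. The longest coverage of a region came from WT mock in 211 regions, from WT doxorubicin in 189, from KO doxorubicin in 67 and from KO mock in 22. Over all 13107 regions these counts were 7309, 2740, 2050 and 1008. The shortest came from KO mock in 256 broad regions, and in 6025 of all regions. The most frequent order, in 108 regions, had WT doxorubicin first, followed by WT mock, KO doxorubicin and KO mock.

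**Figure D1:**
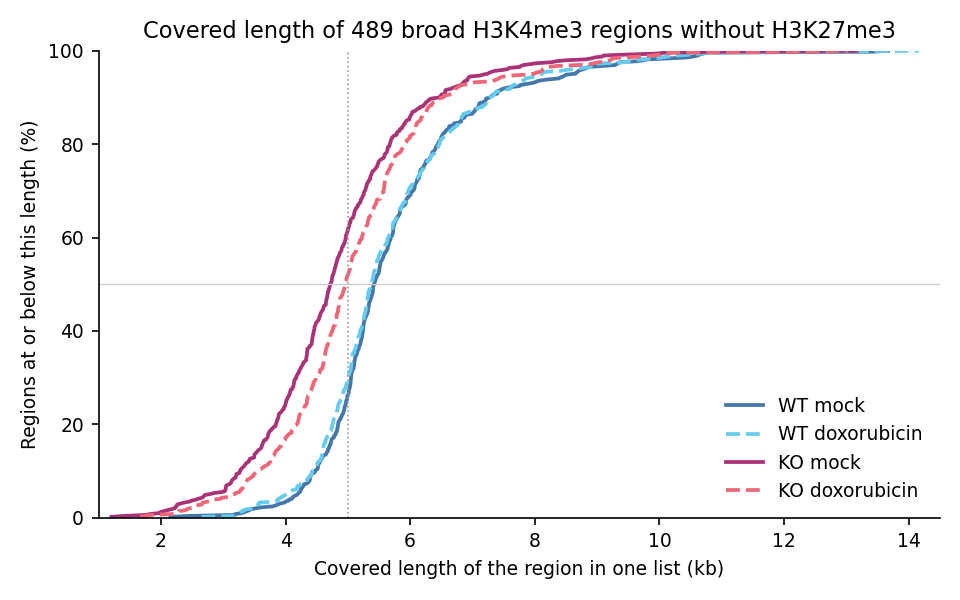
Cumulative share of the 489 regions (vertical axis, percent) by covered length in 1 list (horizontal axis, kb); solid lines are mock and dashed lines doxorubicin, the dotted line marks 5 kb and the horizontal line 50%. The WT curves nearly coincide, with medians of 5421 and 5377 bp, and the KO curves lie to their left at 4719 and 4959 bp.

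A single peak of 5000 bp or more was present in 335, 265, 128 and 179 of the regions in the 4 lists. In 81 regions (16.6%) all 4 lists had such a peak. In 174 (35.6%) 1 list did, most often WT mock alone (97 regions) or WT doxorubicin alone (54), against 18 for KO doxorubicin alone and 5 for KO mock alone. In 70 regions (14.3%) no list had one, and the union reached 5000 bp through several peaks or through peaks offset between lists. A region could thus count as broad through 1 list or through the union alone.

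The bases covered in all 4 lists formed a core with a median of 4392 bp, or 73.3% of the region, and from 1173 to 12793 bp. In 127 regions the core itself reached 5000 bp. The 10670 shorter regions (under 5000 bp, in all 4 lists and without H3K27me3) had the same median share of 73.3%, and the 51 broad regions with H3K27me3 had 59.99%. Across the 489 regions, the covered lengths of KO mock and KO doxorubicin had a Spearman correlation of 0.84, those of WT mock and WT doxorubicin of 0.66, and those of WT mock with either KO list of 0.68 and 0.66. WT doxorubicin had 0.45 with both KO lists. These values run over regions that share a lower limit on union length, and carry no test.

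Several of the longest regions looked much alike in the 4 lists. On chr18:75525564-75539728 every list had 1 unbroken peak, 13671, 14165, 13170 and 13025 bp long. On chr9:66887573-66898276 (10704 bp) peaks covered 10704, 10520, 9944 and 10017 bp, with a single gap of 51 bp in WT doxorubicin cells. The values for chr17:34251526-34262417 (10892 bp) were 10747, 10630, 9108 and 9874 bp, and the KO lists began 801 bp (mock) and 798 bp (doxorubicin) inside its lower edge. The longest and shortest lists differed by 760 to 1639 bp in these regions.

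Another 4 of the longest 10 regions were also covered over most of their length, with differences at an edge or in a gap. At chr5:143572631-143586095 (13465 bp) peaks covered 13440, 11978, 11088 and 12635 bp in 1, 2, 2 and 3 pieces, and the WT doxorubicin and KO mock lists began 1377 and 1530 bp inside its lower edge. The region chr5:123584037-123595274 (11238 bp) had 10452, 10920, 9083 and 10191 bp, and KO mock began 2126 bp inside. At chr1:82278852-82289865 (11014 bp) the values were 10617, 10141, 10099 and 8893 bp. Both WT lists had 1 peak there, and both KO lists had 2, separated by 312 bp in mock and 925 bp in doxorubicin-treated cells. The region chr8:129109664-129120411 (10748 bp) had 10642, 9567, 9477 and 9738 bp and was likewise whole in both WT lists and in 2 pieces in both KO lists, with gaps of 132 and 91 bp.

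The remaining 3 of the longest 10 varied more. On chr3:58217441-58228090 (10650 bp) peaks covered 10547, 9915, 7922 and 10049 bp in 1, 3, 3 and 5 pieces, the largest number of peaks in any region. On chrX:130216614-130226888 (10275 bp) they covered 8450, 7219, 7309 and 9241 bp in 2, 4, 3 and 2 pieces, with KO doxorubicin the longest. On chr4:154587884-154598144 (10261 bp) the coverage was 8102, 10036, 5288 and 5628 bp, and the KO lists, each with 1 peak, began 4087 and 4468 bp inside the lower edge. Both KO lists thus lacked its lower part, and WT mock had a gap of 1593 bp within it. The WT mock piece below that gap had a peak score of 85.66, near the lowest score in any list, 80.01. In WT doxorubicin the lowest piece scored 94.92, and the other piece, of 9157 bp, scored 3100.

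A further 3 regions reached 10 kb, below the 10 longest, and were looked at after their values were seen. On chr17:29227490-29237747 (10258 bp) peaks covered 9373, 10258, 5278 and 6411 bp. The WT doxorubicin list had 1 peak over the whole region, and the KO lists ended 4077 bp (mock) and 3609 bp (doxorubicin) short of its upper edge while lying within 903 bp of its lower edge. The shorter of its WT values was 1.46 times the longer of its KO values. The region chr14:29317124-29327349 had 9068, 9503, 8031 and 9395 bp and chr14:22801134-22811295 had 10162, 9472, 8908 and 9204 bp, so that neither showed such a gap between WT and KO.

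**Figure D2:**
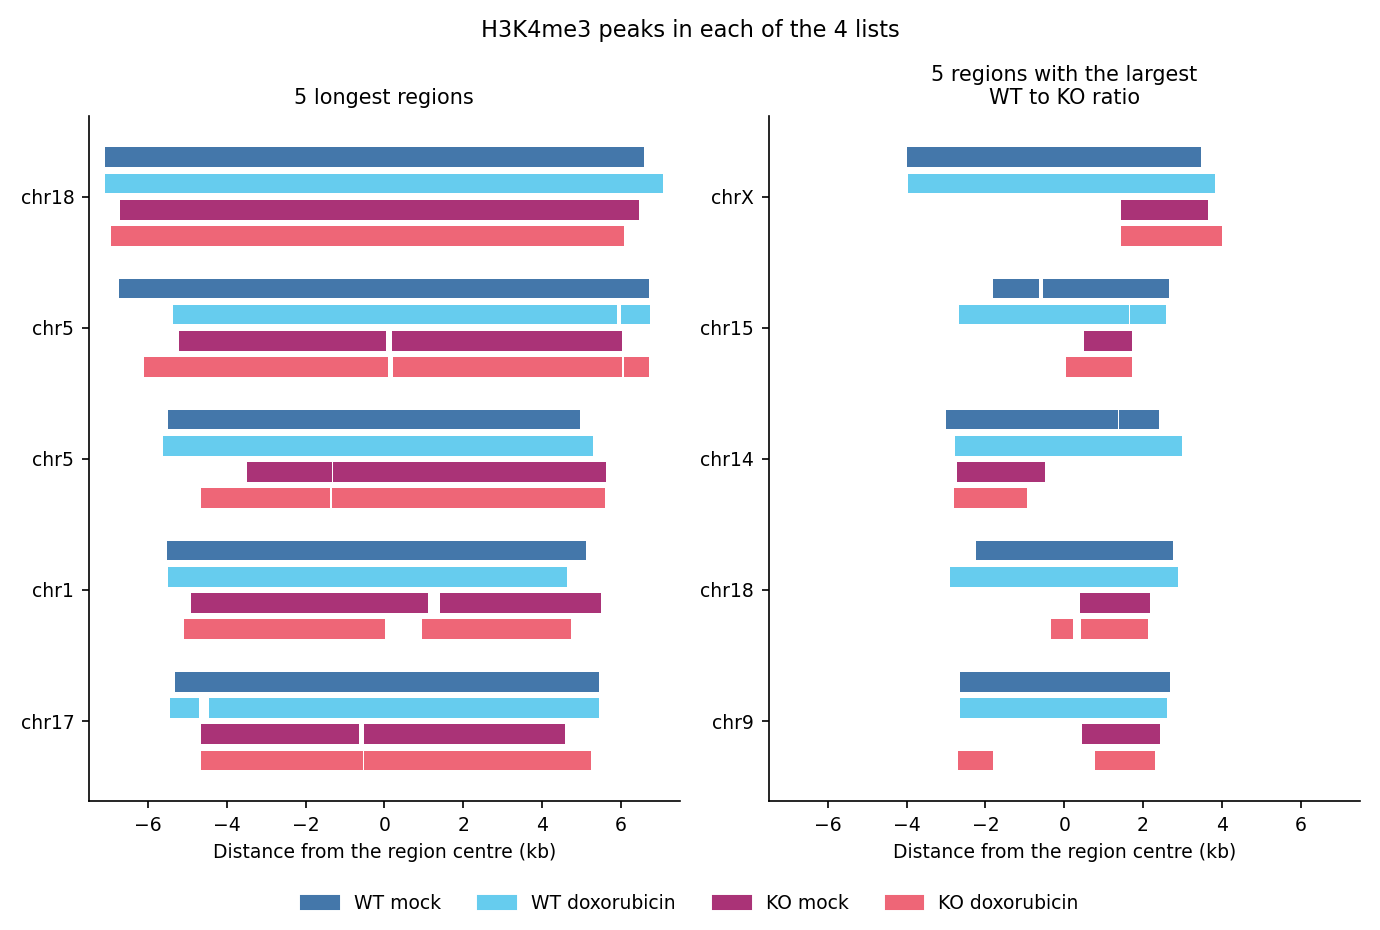
Peaks of the 4 H3K4me3 lists as bars, placed by distance from the region centre in kb (horizontal axis), for the 5 longest regions (left) and the 5 regions with the largest ratio of the shorter WT to the longer KO covered length (right), labelled by chromosome. On the left the 4 lists cover most of each region, with gaps of up to 925 bp and edges up to 2126 bp short; on the right both KO lists keep a piece of the stretch that the WT lists cover.

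At the other end, 54 regions (11.0%) had all 4 covered lengths within 10% of each other. The steadiest was chr9:20445235-20450494, with 4935, 4875, 4958 and 4978 bp and 1 peak in each list, followed by chr11:120207629-120212647 with 4640, 4772, 4664 and 4650 bp. In 116 regions (23.7%) the longest list had at least 1.5 times the length of the shortest, and in 30 (6.13%) at least 2 times. The shares of these counts over all regions were not computed. The median ratio of the longest to the shortest list was 1.26, against 1.27 in the shorter regions and 1.29 over all regions. In relative terms the broad regions thus varied about as much as the others. The median difference between the longest and the shortest list was 1268 bp, against 476 bp in the shorter regions and 496 bp over all regions.

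Splitting, the presence of 2 or more peaks of a list in 1 region, was least frequent in WT mock cells. There 44 regions were split (9.0%, exact 95% binomial interval 6.61 to 11.9, counting error only), against 143 in WT doxorubicin (29.2%, 25.2 to 33.5). KO mock had 164 (33.5%, 29.4 to 37.9) and KO doxorubicin 130 (26.6%, 22.7 to 30.7). Over all 13107 regions present in the 4 lists, the split share was 1.02%, 4.94%, 4.65% and 3.91% in the same order. In the 51 broad regions with H3K27me3 it was 17.6%, 33.3%, 45.1% and 33.3%. WT mock was thus the least divided list among all regions too, and KO mock led among the broad ones while WT doxorubicin led among all. A longer region has more room for a gap, and the share went up with length in every list. In KO mock cells it was 26.1% at 5 to 6 kb, 37.0% at 6 to 8 kb and 67.5% above that, and in WT mock cells 4.85%, 11.0% and 27.5%.

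Most divided regions were in 2 pieces. The number in 3 pieces was 1, 23, 23 and 16, and in 4 or more 0, 3, 2 and 3. The largest gap of a split region had a median of 144.5, 122, 140.5 and 160.5 bp in the 4 lists and a maximum of 1593, 1539, 1928 and 2594 bp. Gaps of at least 200 bp were present in 16, 59, 63 and 57 regions and of at least 1000 bp in 5, 6, 18 and 13. Most splits were therefore interruptions of under 200 bp.

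**Figure D3:**
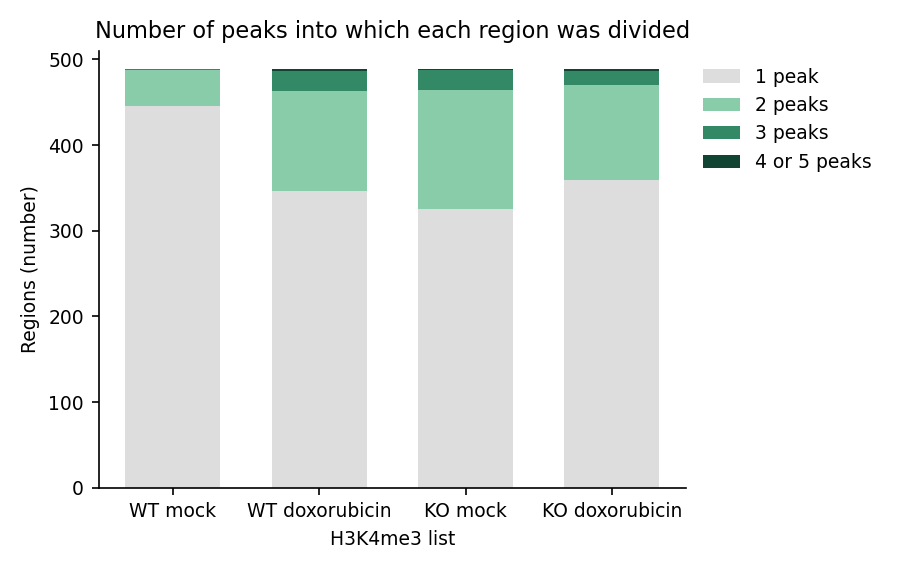
Number of regions (vertical axis) made up of 1, 2, 3 or 4 to 5 peaks in each H3K4me3 list (horizontal axis). WT mock has 44 divided regions, and the 3 other lists have 130 to 164.

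The lists did not split one common set of regions. In 226 regions (46.2%) no list was split, in 125 (25.6%) 1 list was, and in 14 (2.86%) all 4 were. KO mock alone was split in 50 regions, WT doxorubicin alone in 45, KO doxorubicin alone in 26 and WT mock alone in 4. Both KO lists were split in 83 regions, which is 50.6% of those split in KO mock and 63.8% of those in KO doxorubicin. Both WT lists were split in 25 regions, 56.8% of those in WT mock and 17.5% of those in WT doxorubicin. After the region on chromosome 3 with 5 pieces, the most divided were chr10:96078603-96085485 (1, 4, 4 and 2 peaks), the region on chromosome X given above, chr11:69227006-69234266 (1, 1, 2 and 4) and chr16:45093200-45099648 (1, 1, 4 and 2). KO doxorubicin had the most pieces on chromosomes 3 and 11, KO mock on 16 and WT doxorubicin on X, and WT doxorubicin and KO mock had equally many on 10.

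Where a list left part of a region uncovered, the missing bases lay mostly at the edges. Edges made up 94.6%, 86.4%, 91.9% and 91.2% of the uncovered bases in the 4 lists, and gaps the rest. The larger of the 2 edge shortfalls had a median of 264, 257, 785 and 583 bp. Both edges were short by 500 bp or more in 10, 8, 66 and 42 regions. Of the 447 kb by which KO mock lay below WT mock in total, the lower edges took 205 kb, the upper edges 198 kb and gaps 43.1 kb.

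The comparison of doxorubicin with mock in WT cells addresses what DNA damage goes along with in these regions while lincRNA-p21 is present. The covered length differed little, at 2778 kb with doxorubicin and 2808 kb without (-1.05%). It was longer with doxorubicin in 217 regions and shorter in 272, with a median log2 ratio of -0.03 (quartiles -0.14 and 0.10). Shorter regions had a median of -0.14 and all 13107 regions of -0.12, and 22.8% of the shorter ones and 26.4% of all regions were longer with doxorubicin, against 44.4% of the broad ones. A length of at least 1.5 times that of the other list was called longer or shorter. By this rule 7 broad regions (1.43%) were longer with doxorubicin, against 0.671% of all regions, and 7 (1.43%) were shorter, against 3.37%. Relative to the median of all regions 14 were longer (2.86%, against 1.24% of all regions) and 2 shorter (0.409%, against 1.64%).

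The largest difference in favour of doxorubicin in WT cells was at chr2:25117603-25123516, where peaks covered 2151, 5896, 1825 and 1755 bp, a log2 ratio of 1.45 in WT cells. The next was chr1:182259418-182266075 with 3339, 6658, 2596 and 2568 bp (1.00), followed by chr17:46838600-46844631 with 3150, 6032, 2047 and 2279 bp (0.94). In each of these the WT doxorubicin list alone spanned the region. The WT mock list stopped 3763 and 2648 bp short of the upper edge on chromosomes 2 and 1 and about equally at both edges on chromosome 17 (1429 and 1453 bp). The largest differences the other way were at chrX:93290759-93296490 (5732, 2651, 4429 and 4726 bp), chr3:65755663-65763506 (7844, 5238, 3653 and 5423 bp) and chr11:120090517-120100260 (9736, 7221, 7817 and 8212 bp). On chromosome 3 the WT doxorubicin list was in 3 pieces and came within 209 bp of both edges. Most of the missing length there lay in gaps, the largest of 1213 bp. On chromosome 11 part of it was an internal gap of 1232 bp.

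The same comparison in KO cells gave 2502 kb with doxorubicin and 2361 kb without (5.97% more). The regions were longer with doxorubicin in 326 cases (66.7%, against 63.7% of all regions) and shorter in 163 (33.3%, against 36.2%), with a median log2 ratio of 0.07 (quartiles -0.03 and 0.19). Shorter regions had 0.08 and all regions 0.07, so that the broad ones did not stand apart. At least 1.5 times longer were 10 broad regions (2.04%), against 3.13% of all regions, and 1 (0.204%) was shorter, against 1.05%. Relative to the median of all regions these were 8 (1.64%, against 2.22%) and 1 (0.204%, against 1.49%). The WT and KO comparisons use separate libraries, and the difference between them was not tested.

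Leading differences with doxorubicin in KO cells were at chr11:119250702-119258549 (7765, 7164, 2978 and 5588 bp), chr12:34640555-34647809 (6088, 5306, 4198 and 6684 bp) and the region on chromosome 3 from 58217441. On chromosome 11 the KO mock list held 2 peaks 1112 bp apart and ended 3153 bp short of the upper edge. The largest in the other direction was chr13:63340443-63346601, with 6159, 5367, 5783 and 3563 bp and the missing length at the upper edge (2137 bp). It was followed by chr18:69503429-69510002 (6299, 4763, 6561 and 4799 bp) and chr2:173096947-173103542 (6543, 5336, 6079 and 4706 bp). In these 3 regions doxorubicin was the shorter condition in both genotypes.

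The genotypes were compared without the drug to see the regions in cells lacking lincRNA-p21 and not given doxorubicin. KO mock covered 2361 kb and WT mock 2808 kb (-15.9%), and 434 of the 489 regions (88.8%) were shorter in KO mock. Over all 13107 regions the total differed by -15.4% and 85.7% were shorter. The median log2 ratio was -0.21 (quartiles -0.40 and -0.10), beside -0.21 in the shorter regions and -0.23 over all regions. The whole KO mock list was thus narrower than the WT mock list by about this factor, and the broad regions followed it. At least 1.5 times shorter were 56 broad regions (11.5%, interval 8.77 to 14.6), against 11.2% of all regions, and 1 (0.204%) was longer, against 0.244%. Relative to the median of all regions these became 26 (5.32%) shorter, against 4.36% of all, and 3 longer, against 1.03%. KO mock was also the list with the lowest scores, with 8.05% of its peaks at a score of 3100 or more, the value at which scores pile up and here called the ceiling, against 18.1% in WT mock, and the part of this in the widths was not tested.

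By difference in bases, the regions most in favour of WT mock were chrX:166428942-166436927 (7459, 7774, 2221 and 2540 bp), the region on chromosome 11 from 119250702 given above, and chr4:11082554-11090120 (7531, 6459, 3048 and 3995 bp). Those most in favour of KO mock were chr16:85897281-85902287 (2453, 3199, 4420 and 4841 bp), chr11:94796664-94803501 (5275, 5556, 6561 and 6358 bp) and chr10:80597621-80604355 (5229, 5070, 6497 and 5187 bp). The first of these was the single region at least 1.5 times longer in KO mock, and both KO lists exceeded both WT lists there.

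The same genotype comparison was made under DNA damage. KO doxorubicin covered 2502 kb and WT doxorubicin 2778 kb (-9.95%), with 322 regions (65.8%, against 53.3% of all regions) shorter and 166 (33.9%, against 46.5%) longer in KO. Here the broad regions differed from the shorter ones and from all regions, with a median log2 ratio of -0.10 (quartiles -0.32 and 0.05). This stood beside 0.01 in the shorter regions and -0.02 over all regions. Broad regions with H3K27me3 went further the same way, with a median of -0.20 and 90.2% of the 51 shorter in KO. The WT doxorubicin list also enters the treatment comparison in WT cells, where broad and shorter regions differed too (-0.03 and -0.14). In the comparisons without that list their medians were alike (0.07 and 0.08, -0.21 and -0.21). The ratios of a region are tied through the shared lists, so these differences are not separate observations. At least 1.5 times shorter were 62 broad regions (12.7%, interval 9.86 to 16.0), against 6.78% of all regions and 3.23% of the shorter ones, and 4 (0.818%) were longer, against 2.16%. Relative to the median of all regions these were 54 (11.0%, against 6.30%) and 6 (1.23%, against 2.38%). Among regions without H3K27me3 this share was 4.88% under 1 kb and 2.29% at 1 to 2 kb, and went up with length from there. It was 2.52% at 2 to 3 kb, 8.37% at 4 to 5 kb, 10.8% at 5 to 6 kb, 13.8% at 6 to 8 kb and 20.0% of the 40 regions above that. In mock cells the share shorter in KO also went up from 2 kb on, from 6.99% at 2 to 3 kb to 17.5% of the 40 longest. Below that it was 20.7% under 1 kb and 11.4% at 1 to 2 kb. With doxorubicin, broad regions with H3K27me3 had the higher share of 27.5%.

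The share was lower when length was measured another way. With the mean covered length of the 4 lists in place of the union, 258 regions reached 5000 bp, and 6.2% of them were at least 1.5 times shorter in KO doxorubicin, below the 6.78% of all regions and above the 3.23% of the shorter ones. In mock cells the share under this choice was 6.59%, below the 11.2% of all regions and the 8.82% of the shorter ones. The KO doxorubicin list had 35.4% of its peaks at the score ceiling, against 20.0% in WT doxorubicin, and the part of scores or depth in the coverage was not tested.

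The largest differences in favour of WT doxorubicin were at the region on chromosome X from 166428942, at chr4:153346402-153353299 (4406, 6854, 2372 and 2284 bp) and at the region on chromosome 4 from 154587884. Those in favour of KO doxorubicin were led by chr7:52069311-52074765 (3438, 3192, 4667 and 5455 bp), where both KO lists were longer than both WT lists. It was followed by chrX:93290759-93296490, where WT doxorubicin was the shortest list, and by chrX:130216614-130226888.

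**Figure D4:**
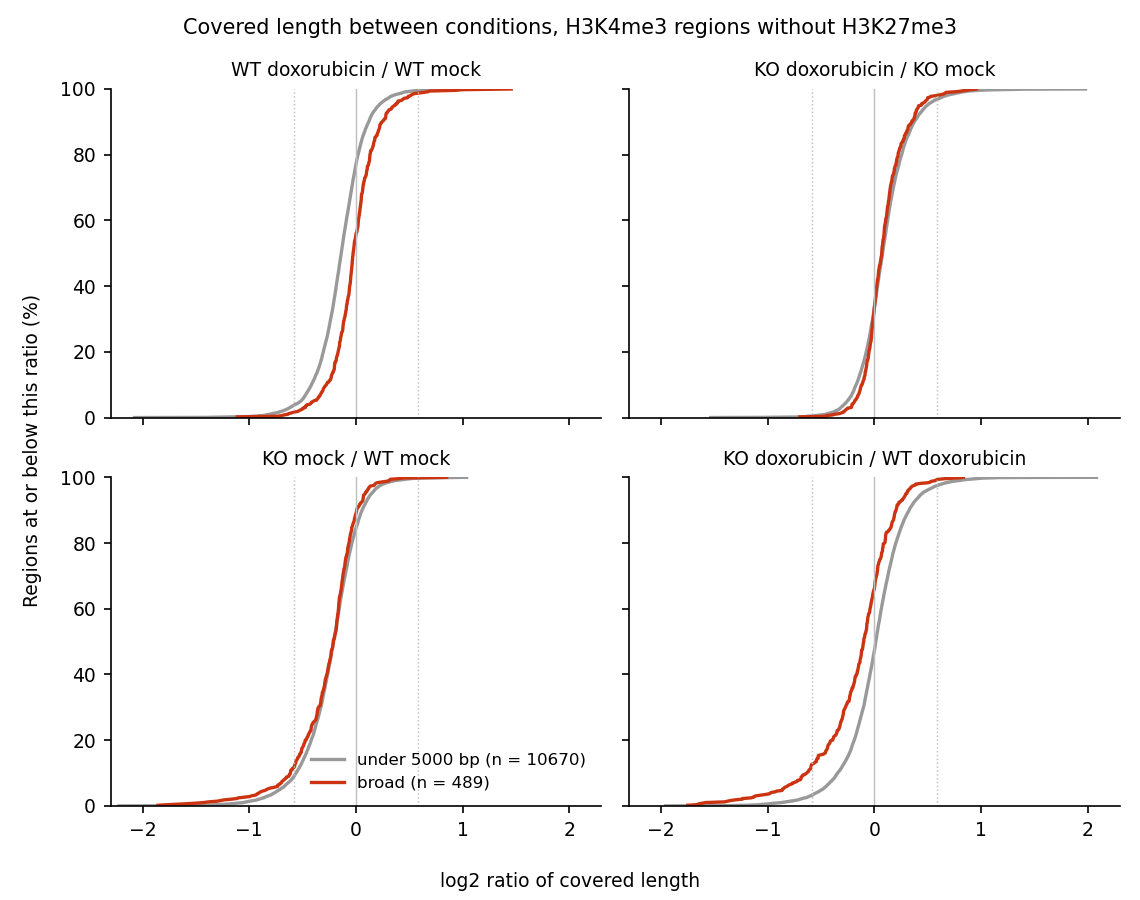
Cumulative share of regions without H3K27me3 (vertical axis, percent) by log2 ratio of covered length (horizontal axis) in the 4 comparisons, for the 489 broad regions (red) and the 10670 shorter regions (grey); dotted lines mark 1.5 times in either direction. The curves nearly coincide in the KO doxorubicin against KO mock and the KO mock against WT mock panels. The broad regions lie to the left in KO doxorubicin against WT doxorubicin, with medians of -0.10 and 0.01. They lie to the right in WT doxorubicin against WT mock, with medians of -0.03 and -0.14.

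The genotype comparisons share no library with each other, and both were read together for each region, whereas each genotype comparison shares a list with each treatment comparison. Both KO lists were shorter than both WT lists in 287 broad regions (58.7%), against 41.7% of all regions, and longer than both in 21 (4.29%), against 6.13%. For treatment, both doxorubicin lists were shorter than both mock lists in 40 regions (8.18%, against 14.6%) and longer in 31 (6.34%, against 5.79%). At 1.5 times or more, 23 regions (4.70%, against 2.37% of all regions and 0.947% of the shorter ones) were shorter in both KO lists than in both WT lists, and 0 were longer, against 0.0916%. Broad regions with H3K27me3 had 7 such shorter regions of 51 (13.7%). No broad region reached 1.5 times for treatment in either direction, against 0.0458% of all regions for shorter and 0.0153% for longer. Under the mean covered length the 23 became 6 of 258 regions (2.33%), and with each list scaled by its median over all regions they became 12 (2.45%, against 1.21% of all regions). After that scaling 2 broad regions were at least 1.5 times longer in both KO lists than in both WT lists, and the share of such regions over all regions was not computed. Without the KO mock list the count of shorter regions was 28 (5.73%), and without the KO doxorubicin list 42 (8.59%). Leaving a list out loosens the rule for every region, and the matching shares over all regions were not computed. Under the mean covered length the share was thus near the 2.37% of all regions and above the 0.947% of the shorter ones.

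These 23 regions, looked at after their values were seen, lay on 11 chromosomes and were 5011 to 9164 bp long. Their covered length had medians of 5335, 6292, 3032 and 2753 bp. WT doxorubicin exceeded WT mock in 18 of the 23 (78.3%), against 199 of the 466 other broad regions (42.7%). KO doxorubicin exceeded KO mock in 16 (69.6%), against 310 of 466 (66.5%). Of the 23, 5 (21.7%) reached the score ceiling in KO mock, against 271 of the 466 others (58.2%), and 16 (69.6%, against 93.6%) did in KO doxorubicin. In the WT lists the ceiling was also reached less often, in 15 of the 23 in mock (65.2%, against 87.98%) and 19 with doxorubicin (82.6%, against 88.6%). The part of these lower scores in the shorter coverage was not tested.

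The strongest of them was chrX:166428942-166436927 (7986 bp). Peaks covered 7459, 7774, 2221 and 2540 bp, 1 in each list, and the shorter WT length was 2.94 times the longer KO length. The KO peaks began 5422 and 5446 bp inside the lower edge and reached to within 343 bp of the upper edge or to it. Its highest scores, 693.72, 1221.45, 515.02 and 899.08, were all below the ceiling, and the first is the lowest of the 489 regions in WT mock cells.

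Next came chr15:73069562-73074879 with 4361, 5224, 1205 and 1664 bp (ratio 2.62) and chr14:21655015-21661014 with 5369, 5779, 2231 and 1843 bp (2.41). The region chr18:62335553-62341333 had 5003, 5781, 1754 and 2270 bp (2.20), and chr9:107479102-107484489 had 5335, 5242, 1983 and 2393 bp (2.19). In the last, the KO doxorubicin list held a piece at each end with 2594 bp between them, the widest gap in any of the 489 regions. The region on chromosome 15 was also weak, with highest scores of 757.64, 1082.13, 165.84 and 273.61, and its KO scores were the lowest of the 489 regions in those lists.

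Among the larger regions of the 23, chr10:117139669-117148733 (9065 bp) was covered over 8857, 8981, 4647 and 5579 bp. The KO lists reached its upper edge to within 84 bp and began 4227 and 3486 bp inside the lower one. The region chr2:13494059-13503222 (9164 bp) had 8664, 8652, 5491 and 5754 bp, with the KO lists ending 3534 and 2569 bp short of the upper edge. At chr4:139129555-139137964 (8410 bp) the values were 8410, 7654, 4370 and 5074 bp. In KO doxorubicin cells most of the missing stretch was an internal gap of 2335 bp, and 877 bp were missing at the lower edge. The piece above the gap was a peak of 611 bp with a score of 80.51, near the lowest score in any list, 80.01. The KO mock list ended 3070 bp short of the upper edge. The region chr11:69388872-69397137 (8266 bp) had 7086, 8126, 4424 and 4597 bp. In these 4 regions the highest score was 2942.01 or more in every list, near or at the ceiling, where scores cannot be told apart.

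The edges of these 23 regions were compared next. In 14 of the 23 in mock and 13 in doxorubicin-treated cells, at least 80% of the difference in covered length lay at a single edge. The larger edge retreat had a median of 2230 bp in mock and 2621 bp with doxorubicin, and the smaller one 366 and 251 bp. It was the same edge in both treatments in 20 of the 23. Among all 489 broad regions, 331 (67.7%) were shorter by 500 bp or more in KO mock and 224 (45.8%) in KO doxorubicin, against 29.4% and 14.7% of all regions, which are mostly shorter than these. At least 80% of the difference lay at 1 edge in 126 (38.1%) and 132 (58.9%) of them, against 29.9% and 57.0% over all regions. With doxorubicin the 13 of the 23 were thus not a larger share than among shortened regions in general. Both treatments had a shortening of 500 bp or more in 186 broad regions, and in 140 of these (75.3%) the larger retreat was at the same edge. Whether this edge lies up- or downstream of a promoter was not determined, as strand and gene starts were not used.

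**Figure D5:**
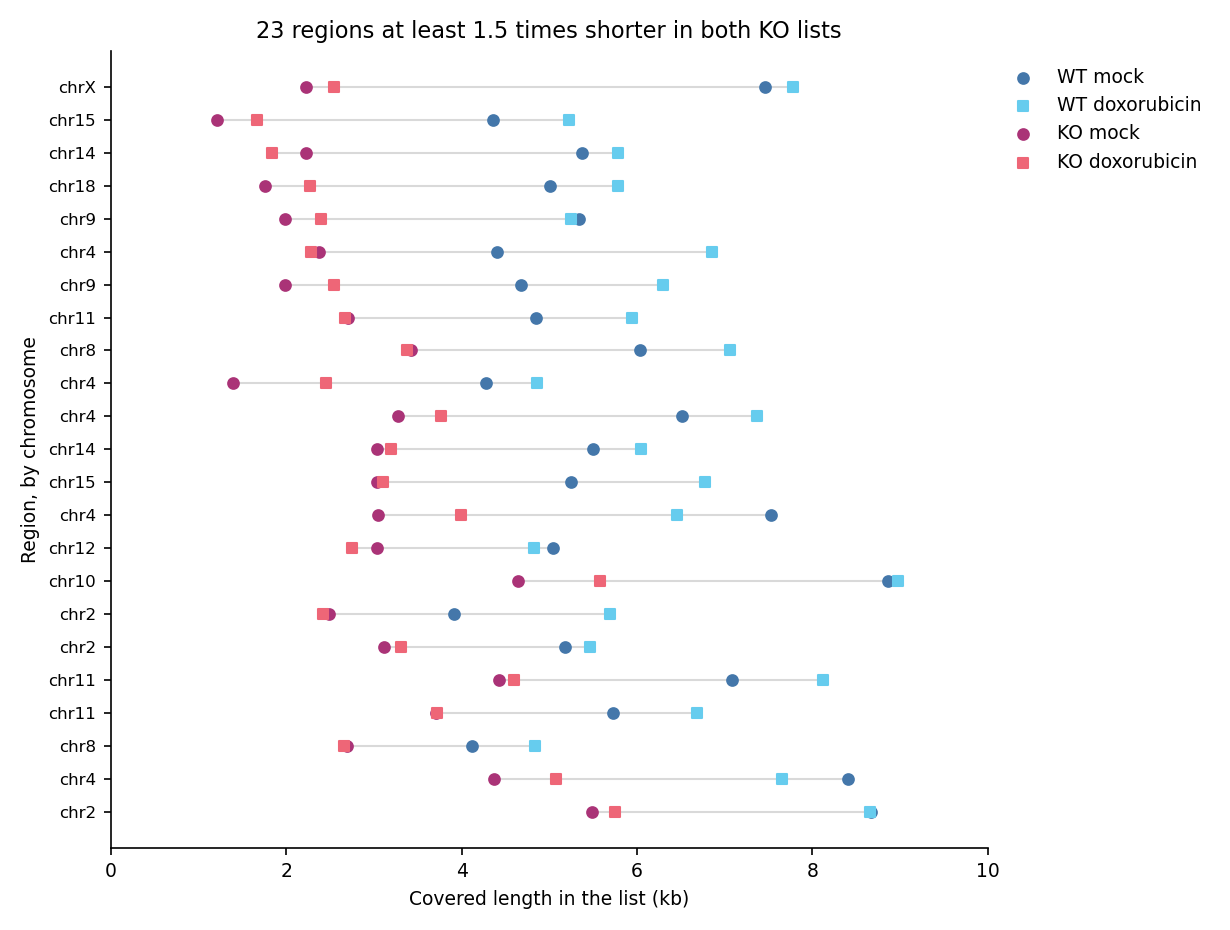
Covered length in kb (horizontal axis) of the 23 regions at least 1.5 times shorter in both KO lists, ordered by the ratio of the shorter WT to the longer KO length and labelled by chromosome (vertical axis); circles are mock, squares doxorubicin, and the grey line joins the extremes. In each row both KO points lie left of both WT points, a separation that the choice of these regions fixes.

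The broad regions were among the highest-scoring places of the lists. Their highest peak score reached the ceiling in 425 regions (86.9%), 432 (88.3%), 276 (56.4%) and 452 (92.4%). For the shorter regions these shares were 20.5%, 25%, 7.96% and 44.6%, and for broad regions with H3K27me3 45.1%, 68.6%, 25.5% and 52.9%. All 4 lists were at the ceiling in 272 broad regions (55.6%), against 7.70% of the shorter ones. A broad region could still score low. In KO mock cells 21 of the 489 lay in the lower 50% of the list by score, and in WT mock cells 9 did.

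H3K27me3 was absent from these regions by the rule, and its peaks were also seldom next to them. The nearest H3K27me3 peak of any list was at a median distance of 62246 bp (quartiles 25387 and 164425 bp), against 45618 bp (13052 and 130659 bp) for the shorter regions. It lay within 5 kb of 16 broad regions (3.27%), against 13.3% of the shorter ones. It lay within 1 kb of 5, and the closest was chr5:75547105-75553396, whose edge was 8 bp from a WT mock H3K27me3 peak and 476, 1043 and 725 bp from peaks of the other lists. At chr11:69227006-69234266 the KO doxorubicin list alone had a near H3K27me3 peak, 95 bp away, and in the other lists the distance was 12283 bp or more. For the region on chromosome 5, absence of H3K27me3 thus rested on those 8 bp.

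Other H3K4me3 regions were often close by. A neighbouring H3K4me3 region lay within 1 kb of 60 broad regions (12.3%), against 3.82% of the shorter ones, although the median distance was similar at 22728 and 25423.5 bp. There were 3 pairs of broad regions under 10 kb apart. The closest pair was chr11:69220809-69226218 and chr11:69227006-69234266, 787 bp apart, followed by chr13:23662054-23669323 and chr13:23673019-23679053, 3695 bp apart, and chr11:116700840-116706271 and chr11:116711030-116717059, 4758 bp apart. Members of such pairs share a neighbourhood and are not independent places.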

How the data were processed

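Deposited peak lists of 8 ChIP libraries (4 conditions by 2 marks, H3K4me3 with antibody ab8580 and H3K27me3 with ab6002) were used. The 4 input libraries were not used here. The submitters' processing notes name Bowtie 0.12.7, MACS 1.4.2 and the build mm9. Each list gives a score per peak, the authors' -10 times log10 of the p-value per the file headers, which was used within a list. The lowest score was 80.01. Depth is unknown. Positions are mm9, counted from 1 on the assumption that deposited starts count from 0.

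Peaks overlapping by 1 bp or more over the 4 H3K4me3 lists were joined, and covered length, pieces, gaps and edges were computed per list. Named regions were the 10 longest, 3 each way per comparison by difference in bases, the 5 most divided and 3 on each side of the limit. Members, lists and comparisons were chosen with earlier results of these data known. Gene lists, cell type markers, gene starts and base composition had been planned but need an annotation or genome of that build, and none was used here. Intervals are exact Clopper-Pearson at 95%. Alternatives changed the score, list size, joining, length, H3K27me3 and split rules, and scaling and mean length were added after seeing the data. On 2255 simulated regions 9 of 9 rules gave back the number put in. Computing used Python 3.11.15 with the packages pandas 2.3.3, numpy 2.4.6, matplotlib 3.10.9 and scipy 1.17.1.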

Additional observations from a re-analysis of the deposited data

Results flagged for a closer look

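Each value here was singled out because the change took opposite directions in the groups compared, and none of these differences was tested. With doxorubicin the total covered length changed by -29.364 kb in WT and by 140.9 kb in KO cells, and the median difference per region was -101 and 236 bp. The number of split regions changed by 99 in WT and by -34 in KO cells. KO minus WT, it was 120 in mock and -13 in doxorubicin-treated cells. Each of these opposite directions was also present over all 13107 regions. There the total changed with the drug by -2088 kb for WT and by 1442 kb for KO, and the median difference was -173 and 90 bp. Split regions went from 134 to 648 for WT and from 609 to 512 for KO. The oppositions were thus not particular to the broad regions.

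Single regions are given where both changes were at least 1000 bp. Doxorubicin minus mock was -1462 bp in WT and 1547 bp in KO cells at chr5:143572631-143586095. At chrX:130216614-130226888 it was -1231 and 1932 bp, and KO minus WT there was -1141 bp in mock and 2022 bp in doxorubicin-treated cells. At chr3:65755663-65763506 doxorubicin minus mock was -2606 bp in WT and 1770 bp in KO cells. KO minus WT was -1303 bp in mock and 2075 bp with doxorubicin at chrX:93290759-93296490, and -1890 and 1378 bp at chr12:34640555-34647809. In each of these 5 regions WT mock was longer than both WT doxorubicin and KO mock.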

How the results depend on the processing

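Of 167 alternative values for 18 results, 115 stayed close to the reported value and 52 moved. The 18 results are counts, totals and shares without a sign, so a reversal could not show in them. Differences between lists that changed sign are given at the end of this section. No paired analysis was possible because each condition has 1 library, and no library could be left out as a replicate. Depth is unknown. Where 4 values follow each other they are in the order WT mock, WT doxorubicin, KO mock, KO doxorubicin.

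At a length limit of 4000 bp there were 1206 regions, covered over 5731, 5604, 4842 and 5125 kb and split in 5.22%, 20.1%, 22.6% and 17.7%. Of them 36 (2.985%, against 2.37% of all regions) were at least 1.5 times shorter in both KO lists. At 6000 bp there were 221 regions, 1473, 1465, 1239 and 1304 kb, and split shares of 14.0%, 34.4%, 42.5% and 34.8%. At this limit 14 (6.335%, against the same 2.37%) were shorter in both KO lists. There 0.452% were shorter in WT doxorubicin than in WT mock, and 0% were longer in KO than in WT, in mock and with doxorubicin.

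With the mean covered length, chosen after seeing the data, there were 258 regions, 1682, 1643, 1458 and 1532 kb, with 12.02% split in WT mock, 40.7% in KO mock and 32.6% in KO doxorubicin. Of them 0% were longer and 0% shorter in WT doxorubicin than in WT mock, 0.775% were longer in KO doxorubicin than in KO mock, and 0% were longer in KO than in WT, in mock and with doxorubicin. Shorter in KO were 6.59% in mock and 6.2% with doxorubicin, and 6 regions in both.

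The split shares were 23.5%, 45.3%, 40.4% and 36.7% with peaks under 1 kb apart joined into regions. WT doxorubicin then had the largest share, in place of KO mock. The shares were 3.27%, 12.1%, 12.9% and 11.7% when only gaps of 200 bp or more counted. With equal numbers of peaks per list, WT doxorubicin had 20.5%. Centred on the median of all regions, also added later, 0.409% were shorter in WT doxorubicin than in WT mock, 5.32% in KO mock than in WT mock, and 12 regions in both KO lists. Longer in both KO lists were then 2 regions, a count for which no share over all regions was computed. Without the KO doxorubicin list, and not centred, the count of shorter regions was 42 (8.59%), and the matching share over all regions was not computed.

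The total for doxorubicin minus mock in WT cells turned to 11.829 kb with joining and was negative in the other settings run. The difference in split regions, KO minus WT with doxorubicin, turned from -13 to 11 with equal numbers of peaks and to 1 at 6000 bp and with the mean covered length. The cause was not tested.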
